A study of Mus musculus with 3 samples.

Results

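Transforming growth factor beta (TGF-beta) genes were followed across the cells of the mouse aorta as 10 named genes of the 32285 in the count tables. They comprised the ligands Tgfb1, Tgfb2 and Tgfb3, the latent complex protein Ltbp1, the activator Thbs1, the receptors Tgfbr1, Tgfbr2 and Tgfbr3, and the intracellular Smad3 and Smad7. The members were taken by symbol, and all 10 were measured in all 3 libraries. Single-cell RNA sequencing covered the whole aorta of male mice of 3 genotypes, APOE2, APOE3 and APOE4, in which the human allele stood in place of the mouse Apoe gene on a C57BL/6J background. All mice were 12 weeks old when a Western diet of 42% fat and 0.2% cholesterol began and were fed it for 16 weeks. No chow-fed mice and no mice with the mouse Apoe gene are analysed here, so every group shared the diet and a human allele. Before loading, cells were pooled within each genotype (6 mice for APOE2, 5 for APOE3, 7 for APOE4), which gave 1 library per genotype and no way to return to single animals.

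TGF-beta ligands are secreted as latent complexes in which a latency peptide holds the ligand and a latent TGF-beta binding protein anchors it to the matrix. Integrins and thrombospondin can release the ligand, which then brings a type II receptor together with a type I receptor that phosphorylates Smad2 and Smad3, and Smad7 is induced by the signal and inhibits it. In the arterial wall the pathway is known for its part in the contractile state of smooth muscle, in matrix synthesis and in aortic aneurysm syndromes caused by variants of its components.

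After removal of cells with fewer than 200 genes or at least 20% mitochondrial counts, 11772 APOE2, 6737 APOE3 and 8248 APOE4 cells remained. Each library held 124926887 to 168310501 unique molecular identifiers (UMIs, counts of single captured transcripts), with medians of 12047 to 17618 per cell. Clustering gave 24 clusters, of which 16 kept at least 8 of 10 smooth muscle markers and were summed as smooth muscle. In this class 4 clusters (8, 14, 17 and 20) also held markers of another cell type, and cluster 13 was led by cardiac muscle genes. Clusters 5 and 6 were fibroblasts, cluster 12 macrophages and cluster 18 endothelial cells. Smooth muscle comprised 9747, 5881 and 6697 cells in the APOE2, APOE3 and APOE4 libraries, fibroblasts 1162, 663 and 973, macrophages 416, 120 and 134, and endothelial cells 171, 33 and 38. Pairs of libraries shared 14 to 27 cell barcodes. Reads assigned to mouse Apoe amounted to 180.5 to 200.1 per 1000000 UMIs in the 3 libraries, so this gene did not separate the labelled genotypes.

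Levels are given as UMIs per 1000000 UMIs of the class (CPM) with an exact Poisson 95% interval, and differences as log2 ratios of 2 levels with an exact 95% interval. Both intervals cover counting error only. Where 3 levels follow each other without names, they are in the order APOE2, APOE3, APOE4. With 1 library per genotype no difference could be set against a spread between replicates, and no test was made. A difference of at least 1.5-fold was counted as large, and the share of all genes that reached it in the same direction is given beside each such count. For counts taken relative to the median of all genes, and for counts under other processing, no such share was computed.

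On the GRCm38 (mm10) assembly the ligand genes span chr7:25687002-25705077 for Tgfb1 (ENSMUSG00000002603), chr1:186622792-186705989 for Tgfb2 (ENSMUSG00000039239) and chr12:86056745-86079041 for Tgfb3 (ENSMUSG00000021253). Ltbp1 (ENSMUSG00000001870) spans chr17:75005568-75392512 and Thbs1 (ENSMUSG00000040152) chr2:118111876-118127133. The receptor genes span chr4:47353222-47414931 for Tgfbr1 (ENSMUSG00000007613), chr9:116084293-116175360 for Tgfbr2 (ENSMUSG00000032440) and chr5:107106570-107289629 for Tgfbr3 (ENSMUSG00000029287). Smad3 (ENSMUSG00000032402) spans chr9:63646767-63757994, and Smad7 is ENSMUSG00000025880.

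Promoter sequences are shown for Tgfb1, Tgfb2 and Tgfbr1, since these members were higher in the APOE4 than in the APOE3 library in both smooth muscle and fibroblasts. Of the 10 members, 6 had an entry in the RefSeq promoter table (GRCm38.p6), and the 250 bases before the start are printed 5′ to 3′ on the strand of the gene. They lie at chr7:25686752-25687001 on the plus strand, chr1:186705990-186706239 on the minus strand and chr4:47352972-47353221 on the plus strand. Capitals mark matches on either strand to the Smad half-site CAGAC, the AP-1 site TGANTCA, the cAMP response element TGACGTCA or the TATA box TATAAA.
Tgfb1: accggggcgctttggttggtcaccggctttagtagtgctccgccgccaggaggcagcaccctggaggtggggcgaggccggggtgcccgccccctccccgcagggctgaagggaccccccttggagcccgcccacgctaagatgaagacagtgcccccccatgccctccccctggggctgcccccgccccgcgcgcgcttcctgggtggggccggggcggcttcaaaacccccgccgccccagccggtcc
Tgfb2: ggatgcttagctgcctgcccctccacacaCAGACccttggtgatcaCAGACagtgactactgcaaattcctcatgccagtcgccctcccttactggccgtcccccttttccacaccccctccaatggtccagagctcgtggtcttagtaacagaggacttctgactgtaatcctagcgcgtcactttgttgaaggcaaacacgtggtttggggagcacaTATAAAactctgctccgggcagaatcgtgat
Tgfbr1: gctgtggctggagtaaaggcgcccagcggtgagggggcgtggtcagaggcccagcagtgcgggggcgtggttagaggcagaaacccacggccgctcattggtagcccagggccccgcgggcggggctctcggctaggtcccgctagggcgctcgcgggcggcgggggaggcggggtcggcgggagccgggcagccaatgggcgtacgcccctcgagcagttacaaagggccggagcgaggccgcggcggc
The Tgfb2 window held 2 matches to CAGAC and 1 to TATAAA, while the printed windows of Tgfb1 and Tgfbr1 held none of these letters. Tgfbr1 had a second window in the table, not printed here, with 1 match to CAGAC and 52.8% G and C. Over 32851 promoter windows of this length, 42.2% held CAGAC, 6.75% TGANTCA, 1.55% TGACGTCA and 12.4% TATAAA. The printed windows of Tgfb1 and Tgfbr1 consisted of 75.2% and 74.8% G and C, and that of Tgfb2 of 53.6%, against a median of 52.4% over all windows.

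The ligands differed in the cells that held them. Tgfb1 was highest in macrophages, at 174.7 CPM over the 3 libraries (95% interval 165 to 185), above B lymphocytes at 105 CPM. Tgfb2 was highest in smooth muscle, at 127.4 CPM, followed by endothelial cells at 105 CPM and fibroblasts at 68.9 CPM, and none of these neighbours overlapped in its interval. Of the endothelial cells 171 were APOE2, and within that library the endothelial level, 116.4 CPM (99.9 to 134.8), overlapped that of smooth muscle, 110.7 CPM. Tgfb3 was highest in fibroblasts, at 73.8 CPM, against 41.1 CPM in smooth muscle and 13.6 CPM in endothelial cells. Fibroblasts also held the highest Tgfb3 level within each library, whereas Tgfb1 in the APOE3 library was highest in its 15 T lymphocytes, at 276.3 CPM.

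Within smooth muscle, Tgfb1 was highest in cluster 9, led by Spp1, Vcam1, Lcn2 and Timp1, where it reached 106.9 CPM against 16.5 CPM in cluster 21. Tgfb2 and Tgfb3 were highest in cluster 7, a cluster of low UMI depth, at 203 and 54.7 CPM. Among the smooth muscle clusters, Tgfbr1, Tgfbr2, Tgfbr3, Smad3 and Smad7 were also highest in cluster 7, so this peak was not particular to the ligands. In the fibroblasts, Tgfb3 stood at 98 CPM in cluster 5, led by Fmod, Inmt and Hhip, and at 42.4 CPM in cluster 6, which held Prg4 and Saa3 among its leading genes.

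**Figure D1:**
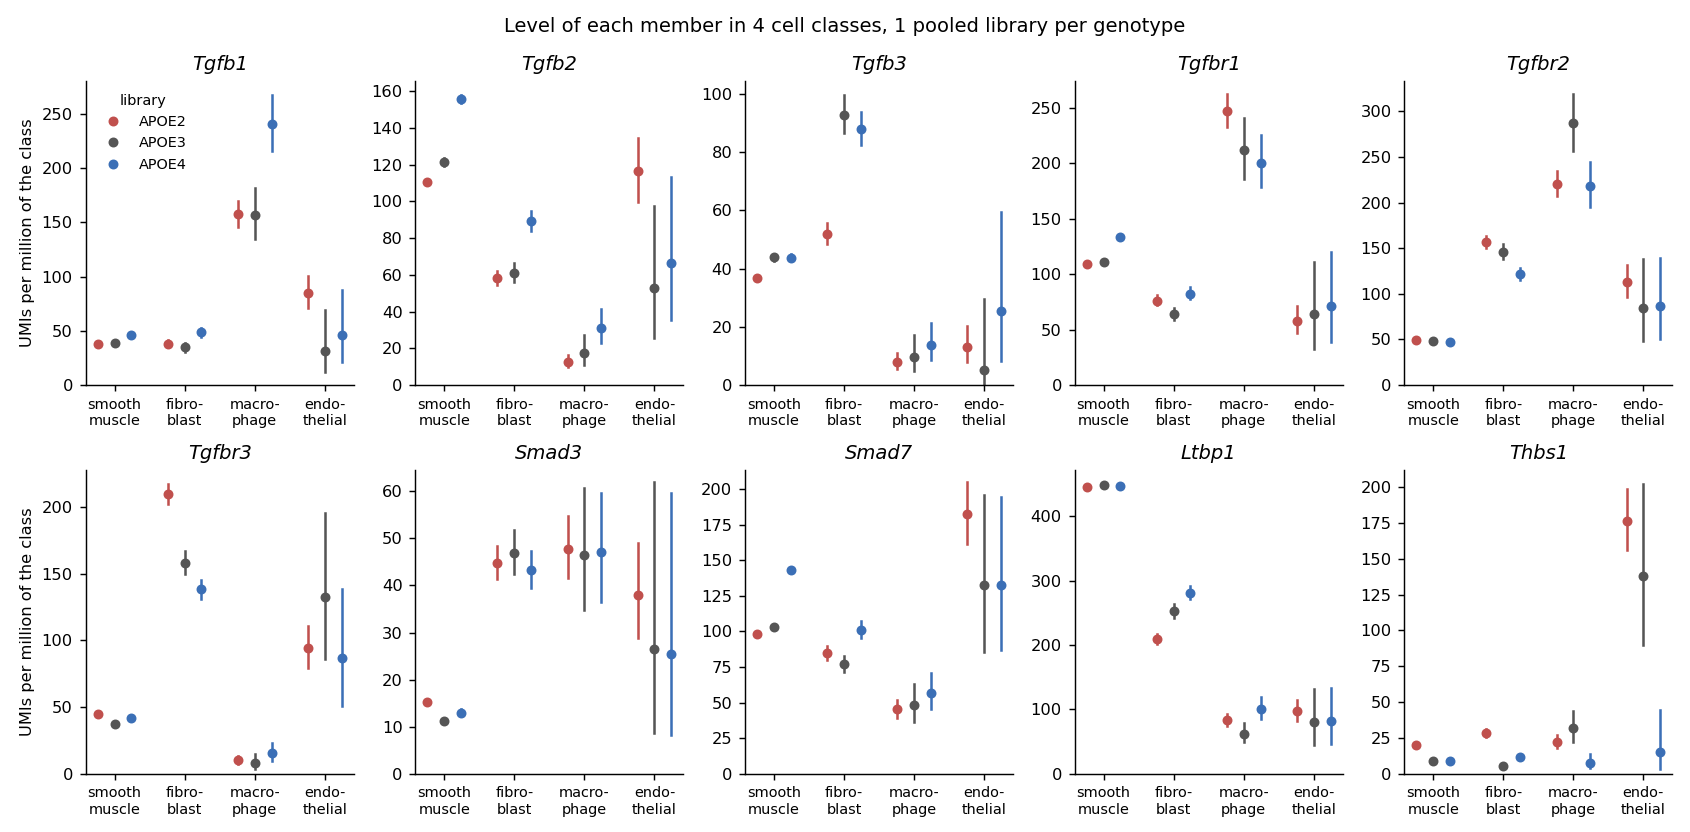
Level of each member (CPM of the class, y axis of its own in each panel) in smooth muscle, fibroblasts, macrophages and endothelial cells; points are single pooled libraries and bars exact Poisson 95% intervals. Tgfb3 stands lower in APOE2 fibroblasts (52 CPM) than in the other 2 libraries (92.8 and 88), and Thbs1 stands higher in APOE2 smooth muscle (20.3 CPM) than in APOE3 (8.99) or APOE4 (8.92).

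In CPM, Tgfb2 was higher in the APOE4 library than in the other libraries in both smooth muscle and fibroblasts. In smooth muscle it stood at 110.7 CPM (109 to 112.4) for APOE2, 121.4 CPM (119.4 to 123.5) for APOE3 and 155.9 CPM (153.5 to 158.2) for APOE4. The APOE4/APOE3 log2 ratio was 0.36 (0.33 to 0.39) and of APOE4 to APOE2 0.49 (0.46 to 0.52). In fibroblasts the levels were 58.1, 61.2 and 89.3 CPM, with an APOE4/APOE3 log2 ratio of 0.54 (0.39 to 0.70). Summed over each class, APOE2 and APOE3 lay closer together, at log2 ratios of -0.13 and -0.08, though their smooth muscle intervals did not overlap. Single clusters differed more. APOE2 was above APOE3 in 4 and below it in 10 of 14 smooth muscle clusters, at log2 ratios from -0.69 to 0.19. In fibroblasts cluster 5 stood at 0.14 (-0.08 to 0.35) and cluster 6 at -0.35 (-0.58 to -0.11).

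Tgfb1 was also highest in the APOE4 library in smooth muscle and fibroblasts, with smaller class ratios than Tgfb2. In smooth muscle it stood at 38.2, 38.9 and 46.1 CPM, an APOE4/APOE3 log2 ratio of 0.25 (0.19 to 0.30). Of 13 smooth muscle clusters with enough UMIs, APOE4 was above APOE3 in 8 and below it in 5. In fibroblasts it stood at 38.3, 34.7 and 48.4 CPM, a log2 ratio of 0.48 (0.27 to 0.69). That log2 ratio was 1.09 (0.72 to 1.48) in cluster 6 and 0.17 (-0.09 to 0.42) in cluster 5. In macrophages, where the gene was highest, the levels were 157.5 CPM (146 to 169.7) for APOE2, 156.9 CPM (134.8 to 181.7) for APOE3 and 240.8 CPM (216.2 to 267.5) for APOE4. The APOE4 macrophages thus lay above the intervals of the other 2 libraries, at APOE4/APOE3 and APOE4/APOE2 log2 ratios of 0.62 (0.35 to 0.89) and 0.61 (0.42 to 0.80). Here the classes rest on 134 APOE4 and 120 APOE3 macrophages. Smooth muscle markers in the macrophages amounted to 12.0%, 18.2% and 18.5% of their level in smooth muscle, which would carry 4.56 to 8.52 CPM of Tgfb1. The summed level of 14 immediate early and heat shock genes in the macrophages was 20075, 31458 and 24950 CPM in APOE2, APOE3 and APOE4.

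Tgfb3 was lower in the APOE2 library, most clearly in fibroblasts. The fibroblast levels were 52 CPM (48.3 to 55.8) for APOE2, 92.8 CPM (86.4 to 99.5) for APOE3 and 88 CPM (82.5 to 93.7) for APOE4. APOE2 lay apart from both other libraries, with a log2 ratio to APOE3 of -0.84 (-0.98 to -0.69), while APOE4 and APOE3 overlapped. Both fibroblast clusters showed it, cluster 5 with 81.1, 111.3 and 103.8 CPM in APOE2, APOE3 and APOE4 and cluster 6 with 27.2, 61.2 and 58.2 CPM. The lower cluster 6 made up more of the APOE2 class, with 563 cells beside 599 of cluster 5, than of APOE3, with 216 beside 447, or APOE4, with 291 beside 682, so the class ratio also holds that shift. With each cell thinned to 3000 UMIs, Tgfb3 was detected in 13.7% of APOE2 fibroblasts (exact binomial interval 11.8% to 15.8%), 24.96% of APOE3 (21.7% to 28.4%) and 23.2% of APOE4 (20.5% to 26%). Without thinning the shares were 39.4%, 59% and 52.5% at median depths of 10662.5, 11311 and 9904 UMIs. In macrophages, taken as cells that should lack the gene, the thinned shares were 1.66%, 0.95% and 2.5%, at median depths before thinning of 8253.5, 8203.5 and 8948 UMIs. Thinning kept 1153 of 1162 APOE2, 661 of 663 APOE3 and 967 of 973 APOE4 fibroblasts. The log2 ratio was nearer 0 in smooth muscle (-0.25, -0.31 to -0.20), at 36.9, 43.9 and 43.8 CPM. There it was the same way in 11 of 14 clusters with enough UMIs, at log2 ratios from -1.30 to 0.60. Cluster 7, the smooth muscle cluster highest in Tgfb3, went the other way. It stood at 66.4, 43.7 and 53.8 CPM, an APOE2/APOE3 log2 ratio of 0.60 (0.22 to 0.99). The summed level of 10 fibroblast markers was also lower in the APOE2 fibroblasts, at 21507 CPM against 27230 and 25618, and its part in the Tgfb3 difference was not tested.

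The latent complex gene Ltbp1, whose product tethers latent ligand to fibrillin fibres, was highest in smooth muscle. Its levels summed over that class lay close together in the 3 libraries, while single clusters differed. It stood at 446.6 CPM in smooth muscle over the 3 libraries, 243.2 CPM in fibroblasts and 94 CPM in endothelial cells. The smooth muscle levels were 444.8 CPM (441.4 to 448.3) for APOE2, 447.9 CPM (444 to 451.7) for APOE3 and 447.6 CPM (443.7 to 451.6) for APOE4, and all 3 intervals overlapped. The interval of the APOE2/APOE3 log2 ratio was -0.03 to 0.01 and that of APOE4 to APOE3 -0.02 to 0.02. By their intervals, APOE2 was above APOE3 in 6 of 16 smooth muscle clusters and below it in 6, at log2 ratios from -0.99 to 0.37. APOE4 was above APOE3 in 2 clusters and below it in 9, at log2 ratios from -1.47 to 0.26. Within the class the gene ranged from 263.9 CPM in cluster 20 to 973.3 CPM in cluster 15, led by Adamtsl1 and Prss12. In fibroblasts it stood at 209.3, 252.8 and 280.8 CPM, without overlap of the intervals. The APOE4/APOE2 log2 ratio was 0.42 (0.35 to 0.50). The difference lay in cluster 6, at 177.2, 255.6 and 316 CPM, an APOE4/APOE2 log2 ratio of 0.83 (0.72 to 0.95). In cluster 5 the levels were 247.2, 251.1 and 262.1 CPM, a log2 ratio of 0.08 (-0.01 to 0.18). After thinning to 3000 UMIs per cell, 40.8%, 41.1% and 43.4% of all fibroblasts held Ltbp1. The exact binomial intervals of these shares overlapped, so the shares did not separate the libraries as the CPM did. Smooth muscle RNA in the fibroblasts would carry 34.5, 45.5 and 42.5 CPM of the gene, and its part in the fibroblast differences was not tested.

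Thbs1, which encodes the matricellular activator thrombospondin-1, was the member with the largest differences between APOE2 and the other libraries in smooth muscle and fibroblasts. In smooth muscle it stood at 20.3 CPM (19.6 to 21.1) for APOE2, 8.99 CPM (8.45 to 9.55) for APOE3 and 8.92 CPM (8.37 to 9.49) for APOE4. APOE2 was thus 2.26-fold higher than APOE3, a log2 ratio of 1.18 (1.08 to 1.28), and APOE4 overlapped APOE3. Of 15756 genes, 4.14% had a higher ratio of APOE2 to APOE3. With each cell thinned to 3000 UMIs, which kept 8524 APOE2, 5458 APOE3 and 6210 APOE4 smooth muscle cells, Thbs1 was detected in 3.31%, 1.26% and 1.53% of them. In T lymphocytes, taken as cells that should lack the gene, it was detected in 0 of 102 APOE2 cells, which allows a share of up to 3.55%, and in 1.11% of 90 APOE4 cells, at median depths before thinning of 5509 and 6347 UMIs. All 19 APOE4 UMIs came from 1 cell, and the level was 0 CPM with the highest doublet scores removed. The bound of 3.55% lies above the APOE2 smooth muscle share, so these cells could not set a background level. Before thinning the smooth muscle shares were 8.31%, 4.28% and 5.3%, at median depths of 12770, 18672 and 14679 UMIs.

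Over the 3 libraries Thbs1 was highest in neutrophils and endothelial cells, at 201.4 and 156.2 CPM with overlapping intervals. The endothelial level came from APOE2 and APOE3, since that of APOE4 was 15.3 CPM. Macrophages and fibroblasts followed at 20.8 and 17.2 CPM, which also overlapped, and smooth muscle at 13.4 CPM. In smooth muscle few cells carried the Thbs1 counts. The 1% of smooth muscle cells with most Thbs1 held 50.9%, 75.4% and 60.4% of its UMIs, and the highest single cells held 57, 82 and 84 UMIs. The intervals above treat UMIs as independent and are narrower than such a spread over cells allows. The mean of each cell's own CPM gave an APOE2/APOE3 log2 ratio of 0.81. Thbs1 was also uneven over the clusters. It was highest in cluster 9, led by Spp1 and Vcam1, at 85.1, 68.4 and 57.5 CPM in APOE2, APOE3 and APOE4, an APOE2/APOE3 log2 ratio of 0.31 (0.15 to 0.48). The ratio was larger in several other clusters, with 26.9, 10.4 and 9.39 CPM in cluster 0, led by immediate early genes, and 15.7, 1.19 and 5.3 CPM in cluster 2, where 1853 of 2674 cells were APOE2. It went the other way in cluster 8, a low-depth cluster that also held fibroblast markers, with 34.1, 67.4 and 1.17 CPM. Of 16 smooth muscle clusters, 10 had at least 50 Thbs1 UMIs in APOE2 and APOE3 together, and APOE2 was above APOE3 in 9 of these. Their median APOE2/APOE3 log2 ratio was 1.61. Clusters could reach 50 UMIs through APOE2, as did cluster 2 with 388 APOE2 and 10 APOE3 UMIs and cluster 3 with 75 and 20. The count of 9 and the median thus lean towards clusters high in APOE2. Among the clusters left out, cluster 4 had 22 APOE2 and 27 APOE3 UMIs, a log2 ratio of -0.17 (-1.05 to 0.69).

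In fibroblasts the Thbs1 levels were 28.6 CPM (26 to 31.5) for APOE2, 5.14 CPM (3.74 to 6.9) for APOE3 and 11.6 CPM (9.63 to 13.8) for APOE4. The counts were 416, 44 and 126 UMIs in 89, 20 and 34 cells. The APOE2/APOE3 log2 ratio was 2.48 (2.03 to 2.96). The difference lay in cluster 6, at 47.2, 4.42 and 25.7 CPM, and not in cluster 5, at 6.75, 5.57 and 4.07 CPM. This result depended on where the fibroblast class ended. When the libraries were merged without integration, the log2 ratio turned to -0.48, with 376 UMIs in the APOE3 class, 286 of them in 19 cells of cluster 9 that were then classed as fibroblasts. In endothelial cells, the levels of 176.5, 137.9 and 15.3 CPM rested on 20 APOE2 cells with the transcript and on 1 cell each in the APOE3 and APOE4 libraries.

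**Figure D2:**
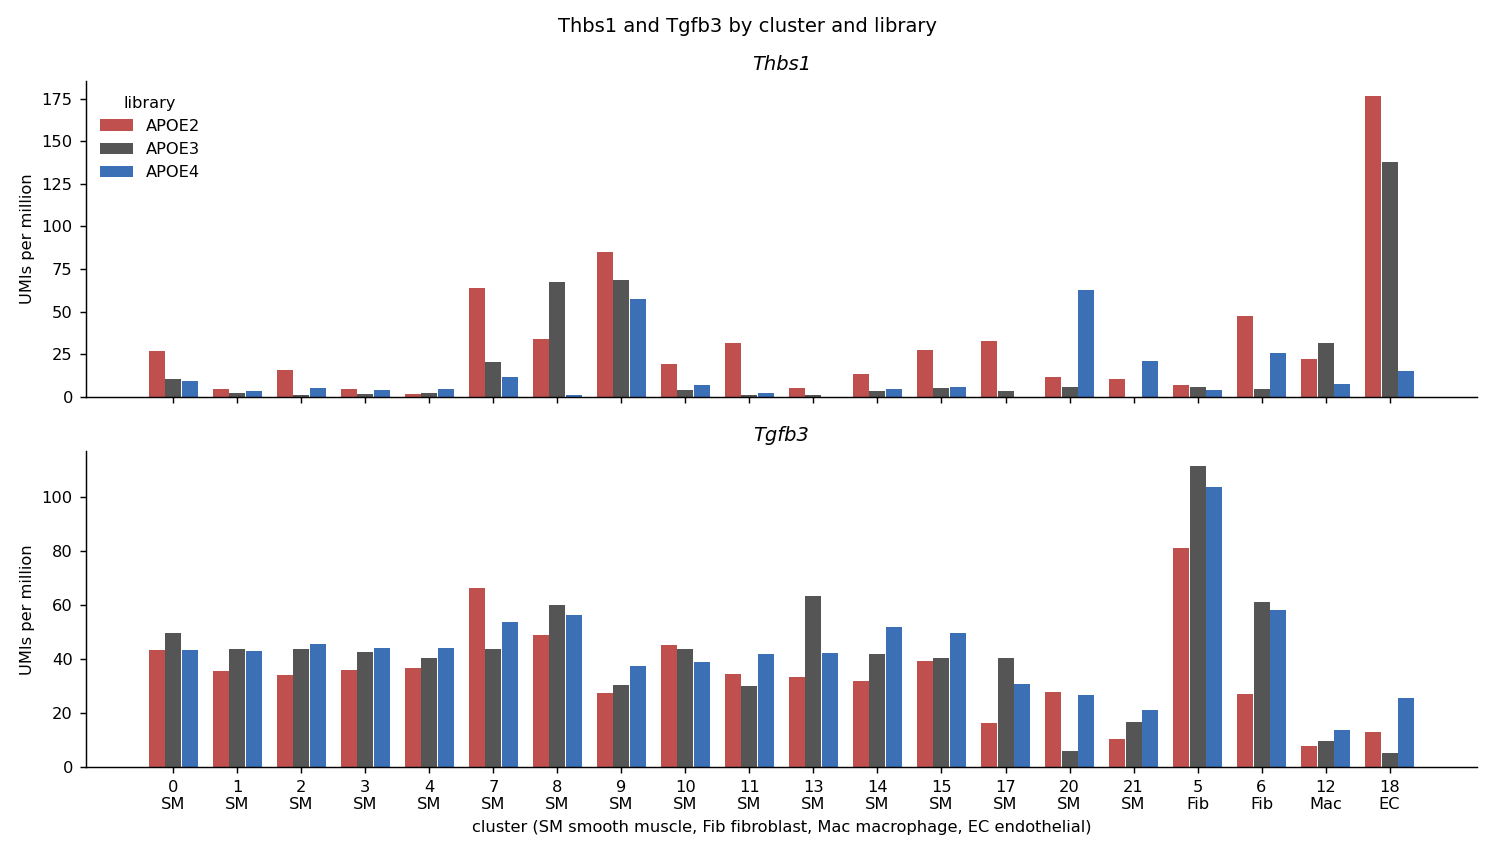
Thbs1 (upper panel) and Tgfb3 (lower panel) in CPM for the 20 clusters of smooth muscle, fibroblasts, macrophages and endothelial cells; each bar is 1 pooled library, with no replicate and no error bar. The APOE2 bar of Thbs1 stands out in clusters 0, 2, 7 and 6 but not in clusters 4, 5 or 8, and the APOE2 bar of Tgfb3 is the lowest in both fibroblast clusters.

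Other cell markers moved with the genotypes inside the smooth muscle class, beside the Thbs1 difference. The summed level of 10 macrophage markers was 96.6, 28.2 and 27.1 CPM in APOE2, APOE3 and APOE4, that of 10 fibroblast markers 1371, 610.4 and 668.1 CPM, that of 10 endothelial markers 61.6, 30.1 and 40.0 CPM, and that of 6 platelet genes 13.7, 8.4 and 12.2 CPM. All members of these lists were above 0 in all 3 libraries. The summed level of 8 genes of the aortic arch, a list that includes Spp1 and Mmp12, was 645.7, 65.9 and 48.4 CPM, and that of 8 genes of the descending aorta 80.1, 117.7 and 132.7 CPM. Over the clusters the arch list summed to 3360 CPM in cluster 9, led by Spp1, and to 2283 CPM in the macrophage cluster 12. Its sum was not taken as a measure of aortic position. Over the 16 smooth muscle clusters, Thbs1 followed the arch list with Spearman's rho of 0.75 and Tgfb1 with 0.72, a description over clusters that share libraries and differ in depth. The part of these lists in the Thbs1 difference was not tested. Without the 4 clusters that held markers of another type, the log2 ratio was 1.24. These included cluster 8, where APOE2 stood below APOE3, at 34.1 against 67.4 CPM of Thbs1. Clusters that stayed also held such markers, with fibroblast markers at 3274 CPM in cluster 9 and macrophage markers at 325 CPM in cluster 11. The ratio of 1.24 is therefore no measure of the part of other cell types.

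The receptors also differed in the cells that held them. Tgfbr1 shared its highest class, macrophages, with Tgfb1, and Tgfbr3 shared fibroblasts with Tgfb3. Tgfbr1, the type I receptor kinase, was highest in macrophages, at 232.1 CPM, followed by neutrophils at 121.4 CPM and smooth muscle at 116.9 CPM, and the last 2 overlapped. The few neutrophils of the APOE3 and APOE4 libraries, 10 and 7 cells, stood above the macrophages, at 307.6 and 330.8 CPM. Tgfbr2, the type II receptor that binds ligand first, was highest in B lymphocytes and macrophages, at 248.9 and 230.9 CPM with overlapping intervals, and stood at 142.8 CPM in fibroblasts. The B lymphocyte level came mostly from 269 APOE4 cells at 284.3 CPM, and in APOE2 and APOE3 it was 142.3 and 60.6 CPM, below the macrophages at 220.4 and 286.7 CPM. Tgfbr3, the co-receptor betaglycan that presents ligand to the type II receptor, was highest in fibroblasts, at 173.8 CPM, above endothelial cells at 97.2 CPM, and T lymphocytes and smooth muscle followed at 45 and 41.4 CPM with overlapping intervals. Macrophages held Tgfbr3 at 7.89 to 15.2 CPM, against the 5.33 to 7.66 CPM that their smooth muscle RNA would carry.

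Tgfbr1 was higher in APOE4 smooth muscle, at 133.7 CPM (131.6 to 135.9), than in APOE2 at 108.8 CPM (107.1 to 110.5) or APOE3 at 111 CPM (109.1 to 113). The APOE4/APOE3 log2 ratio was 0.27 (0.23 to 0.30). In fibroblasts it was 0.37 (0.22 to 0.53), and there APOE2 was also above APOE3, at 76.2 against 63.7 CPM. Tgfbr2 varied least among the receptors in smooth muscle, at 49.9, 48 and 46.7 CPM. In fibroblasts Tgfbr2 was lower in APOE4, at 156.7, 145.7 and 121.9 CPM, with an APOE4/APOE2 log2 ratio of -0.36 (-0.46 to -0.26). Tgfbr3 had the same order in fibroblasts, at 209.8 CPM (202.4 to 217.4) for APOE2, 158.1 CPM (149.8 to 166.8) for APOE3 and 138.3 CPM (131.4 to 145.4) for APOE4, without overlap. Its APOE4/APOE2 log2 ratio was -0.60 (-0.69 to -0.51), and both fibroblast clusters had the same order, with 171, 130 and 121 CPM in cluster 5 and 243, 206 and 171 CPM in cluster 6. In smooth muscle Tgfbr3 stood at 44.6, 37.1 and 41.5 CPM. Macrophages held Tgfbr2 at 220.4, 286.7 and 218.7 CPM, with APOE3 above both other libraries.

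Smad3, a receptor-activated Smad of this pathway, was low in smooth muscle, at 15.3, 11.2 and 13 CPM. The APOE2/APOE3 log2 ratio was 0.45 (0.35 to 0.55), and 14.7% of all genes lay above it. In fibroblasts the levels were 44.8, 47 and 43.3 CPM and in macrophages 47.8, 46.5 and 47.1 CPM, with overlapping intervals in each class. Over all cells Smad3 was highest in neutrophils and T lymphocytes, at 89.8 and 80.3 CPM, whose intervals overlapped. The neutrophil level came mostly from APOE2, with 34 UMIs beside 1 in APOE3 and 2 in APOE4. In the APOE3 library T lymphocytes stood at 121.9 CPM, from 15 cells, and neutrophils at 20.5 CPM, from 10 cells.

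Smad7, the inhibitory Smad, was the member with the largest ratio of APOE4 to APOE3 in smooth muscle. Its levels were 98 CPM (96.4 to 99.7) for APOE2, 103.3 CPM (101.4 to 105.1) for APOE3 and 143.1 CPM (140.9 to 145.3) for APOE4, so APOE4 lay above both others. The APOE4/APOE3 log2 ratio was 0.47 (0.44 to 0.51), a 1.39-fold difference that 10.7% of 15238 genes exceeded. With each cell thinned to 3000 UMIs, Smad7 was detected in 23.9%, 23.0% and 30.9% of smooth muscle cells in APOE2, APOE3 and APOE4, against 10.5%, 10.5% and 7.5% of macrophages, which held less of the gene in CPM. Before thinning the smooth muscle shares were 55.8%, 65.3% and 68.7%. In fibroblasts the levels were 84.7, 76.9 and 101.2 CPM and the APOE4/APOE3 log2 ratio was 0.40 (0.26 to 0.54). Across classes Smad7 was highest in B lymphocytes, at 222.9 CPM, a class with 269 of its cells in the APOE4 library, 34 in APOE2 and 11 in APOE3, and with 260.5 CPM in APOE4 against 76.6 and 133.4 CPM in APOE2 and APOE3. Endothelial cells followed at 172.4 CPM.

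**Figure D3:**
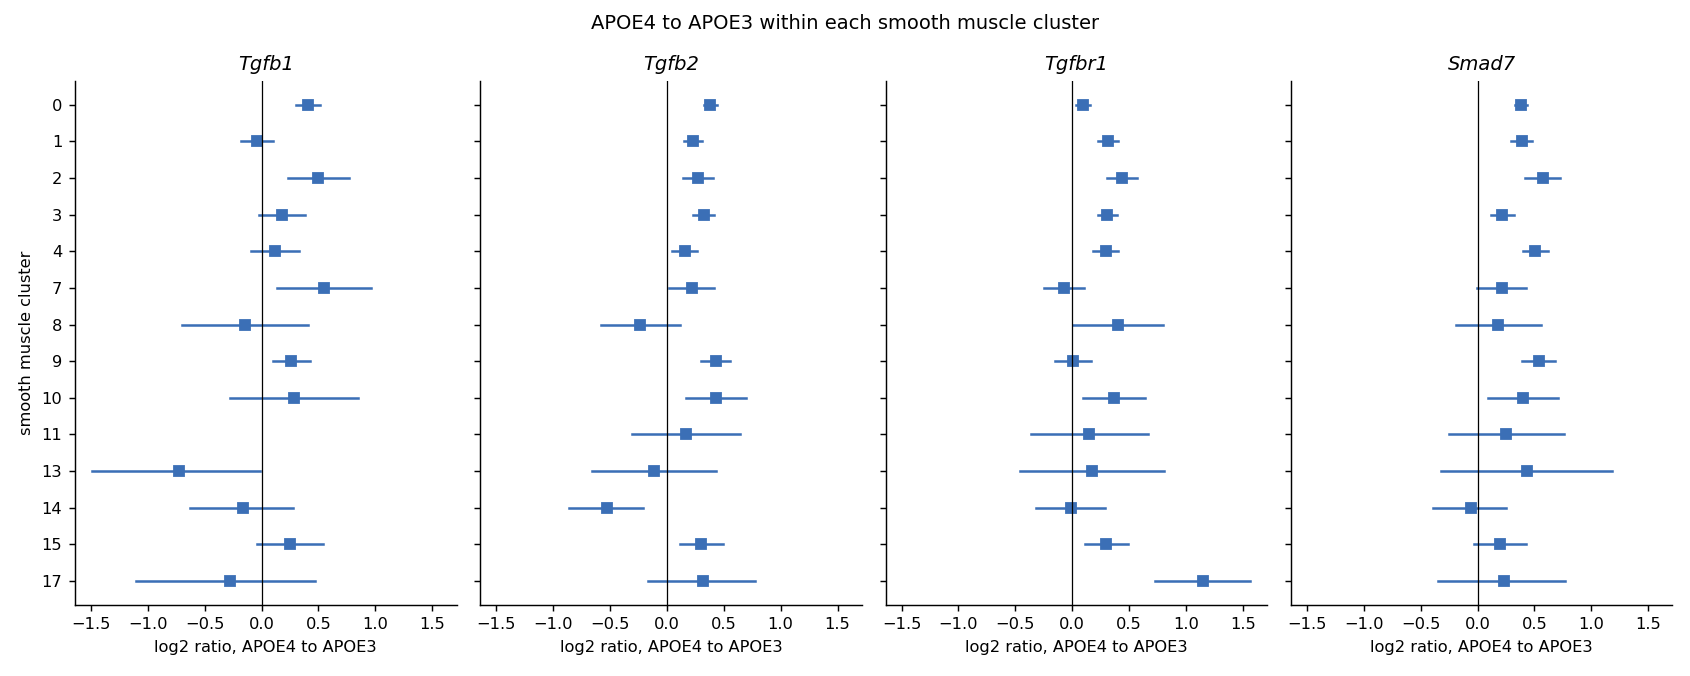
APOE4/APOE3 log2 ratio (x axis) for Tgfb1, Tgfb2, Tgfbr1 and Smad7 in each smooth muscle cluster (y axis) with at least 50 UMIs in both libraries together; squares are ratios of pooled libraries and bars exact 95% counting intervals. Smad7 lies above 0 in 13 of 14 clusters, Tgfbr1 in 12 of 14, Tgfb2 in 11 of 14 and Tgfb1 in 8 of 13, and Tgfb2 lies below 0 in cluster 14.

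The APOE4 differences of Tgfb1, Tgfb2, Tgfbr1 and Smad7 stood beside a difference of the immediate early genes between the same libraries. Immediate early genes, such as Fos, Junb and Egr1, answer within minutes to many stimuli and also to enzymatic dissociation of tissue. The list of 14 genes used here also holds the heat shock genes Hspa1a, Hspa1b and Dnajb1. All its genes are called immediate early for short. The summed level of these 14 genes was 11947, 14877 and 20876 CPM in APOE2, APOE3 and APOE4 smooth muscle and 8048, 9040 and 17429 CPM in fibroblasts. All 14 were above 0 in every library, and 9 of 14 in smooth muscle and 11 of 14 in fibroblasts were at least 1.5-fold higher in APOE4 than in APOE3, where 8.39% and 5.26% of all genes were. Smad7 in cluster 0, which immediate early genes led, was 137, 149 and 194 CPM. Without cluster 0, the APOE4/APOE3 log2 ratios were 0.41 for Smad7, 0.30 for Tgfb2, 0.33 for Tgfbr1 and 0.17 for Tgfb1. With equal weight for each cluster they were 0.25, 0.20, 0.22 and 0.20. Over the 16 smooth muscle clusters, Spearman's rho with the immediate early list was 0.47 for Smad7 and 0.46 for Tgfb2. It was lower for Tgfbr1, at 0.26, and for Tgfb1, at 0.25. The part of the immediate early genes in these differences was not tested.

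Between APOE2 and APOE3 smooth muscle, 1 of 10 members, Thbs1, was at least 1.5-fold higher, where 11.1% of 15756 genes were, and none was as much lower, where 3.01% were. Between APOE4 and APOE3 no member reached 1.5-fold in either direction, where 8.39% of genes were higher and 3.89% lower. Between APOE4 and APOE2 no member was 1.5-fold higher, where 7.22% of genes were, and Thbs1 was lower, where 11.8% were. In that comparison the median of all genes stood at -0.11 on the log2 scale, and relative to it Tgfb2, at 0.61, and Smad7, at 0.66, passed 1.5-fold. Of all genes, 8.79% had a higher ratio than Tgfb2 and 7.84% a higher ratio than Smad7. The median ratio of the members was -0.02 for APOE2 to APOE3, 0.18 for APOE4 to APOE3 and 0.13 for APOE4 to APOE2, against 0.05, -0.08 and -0.11 for all genes. The comparisons share libraries, so they are not independent.

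In fibroblasts, Thbs1 was at least 1.5-fold higher in APOE2 than in APOE3, where 4.9% of genes were, and Tgfb3 was lower, where 6.04% were. Thbs1 was also higher in APOE4 than in APOE3, where 5.26% of genes were, and no member was 1.5-fold lower, where 5.01% were. That Thbs1 log2 ratio, 1.17, turned to -1.56 with the libraries merged and to -0.70 with each cell classed by its own markers. Between APOE4 and APOE2, Tgfb2 and Tgfb3 were higher, where 7.2% of genes were, and Tgfbr3 and Thbs1 were lower, where 6.95% were. The median of all genes in APOE4 to APOE3 was -0.10 on the log2 scale, and relative to it Tgfb2 also passed 1.5-fold, at 0.65. Of all genes, 5.82% had a higher ratio than Tgfb2.

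**Figure D4:**
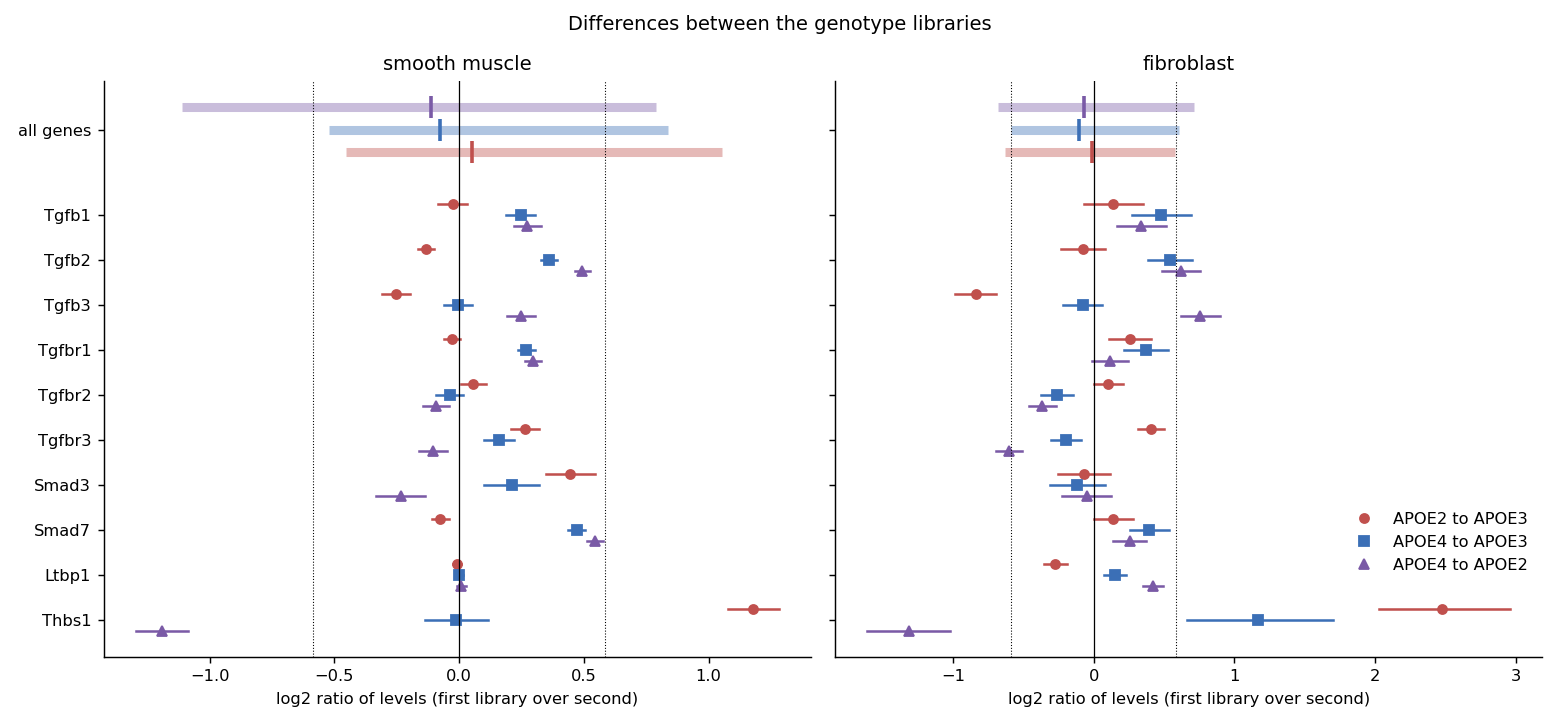
Log2 ratios of the 10 members between the genotype libraries in smooth muscle (left) and fibroblasts (right), on x axes of different range; symbols are single pooled libraries compared, bars exact 95% counting intervals and dotted lines 1.5-fold. The thick bars on top span the middle 90% of all genes, with their median as a tick, and Thbs1 lies outside them for APOE2 to APOE3 in both classes.

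Macrophages and endothelial cells rested on fewer cells. In macrophages 3 of 7 members with enough UMIs, Tgfb1, Tgfb2 and Ltbp1, were at least 1.5-fold higher in APOE4 than in APOE3, where 9.58% of 6504 genes were, and none was lower, where 9.62% were. Both Tgfb2 and Ltbp1 turned direction in at least 1 other way of classing the cells or removing likely doublets. For these genes the macrophage levels of 12.8 to 31.1 and 62.2 to 101 CPM stood beside those that their smooth muscle RNA would carry, 13.2 to 28.8 and 53.2 to 82.7 CPM. Between APOE4 and APOE2, Tgfb1, Tgfb2, Tgfb3 and Tgfbr3 were higher, where 10.9% of genes were, and Thbs1 was lower, where 10% were. The Thbs1 counts came from 19 APOE2 and 2 APOE4 macrophages. With each cell classed by its own markers, the log2 ratios of Tgfb2, Tgfb3 and Tgfbr3 turned to -0.84, -0.37 and -0.24, and the counting intervals of Tgfb3 (-0.08 to 1.62) and Tgfbr3 (-0.21 to 1.37) included 0. Between APOE2 and APOE3 no member of 9 reached 1.5-fold, where 9.96% of genes were higher and 10.8% lower. In endothelial cells, Tgfb1 and Tgfb2 were higher in APOE2 than in APOE3, at 85 against 31.8 CPM and 116.4 against 53.1 CPM, where 19.1% of genes were. None was lower, where 13.5% were, and the APOE3 values rested on 6 and 10 UMIs in 33 cells. With clustering features chosen without leaving out pathway genes, the Tgfb2 log2 ratio turned from 1.13 to -0.55. Smooth muscle markers summed to 5424, 1671 and 1853 CPM in the endothelial cells, which was 10.5%, 2.76% and 3.29% of their level in smooth muscle, and their part in these differences was not tested. Tgfb1, Tgfb2 and Thbs1 were lower in endothelial APOE4 than in APOE2, where 21.2% of genes were, and no member was higher, where 11.3% were. The APOE4 values rested on 9, 13 and 3 UMIs in 38 cells, beside 130, 178 and 270 UMIs in APOE2. These genes thus reached 50 UMIs through the APOE2 library. The intervals of the log2 ratios of Tgfb1 (-2.05 to 0.08) and Tgfb2 (-1.75 to 0.0005) included 0. Between endothelial APOE4 and APOE3 only Smad7 had enough UMIs, and its levels of 132.7 and 132.6 CPM did not reach 1.5-fold, where 11.8% of genes were higher and 11.7% lower.

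**Figure D5:**
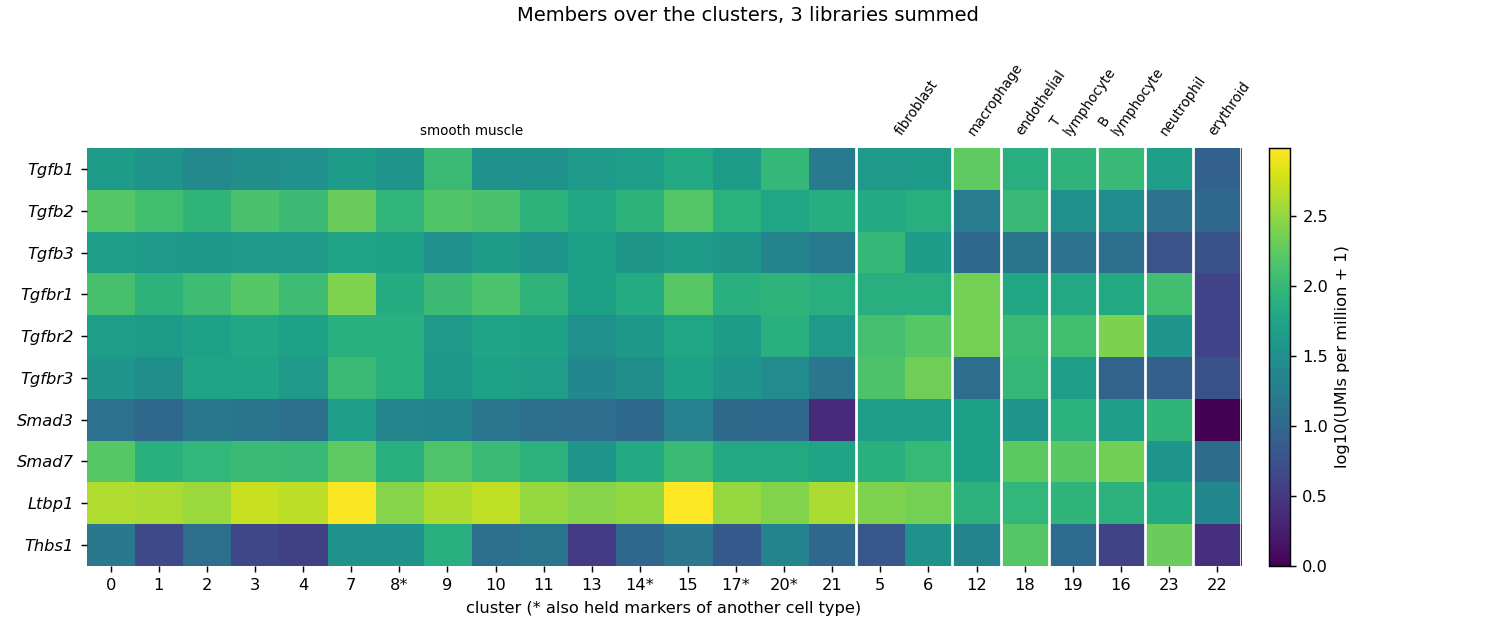
Levels of the 10 members over the 24 clusters with the 3 libraries summed, as log10(CPM + 1); columns are grouped by class and a star marks clusters that also held markers of another cell type. Tgfb1 stands out in the macrophage cluster 12 and in smooth muscle cluster 9, Tgfbr3 in the fibroblast clusters 5 and 6, and Thbs1 in the endothelial cluster 18, the neutrophil cluster 23 and cluster 9.

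The genes most like each member over the 24 clusters were sought among 6611 genes by Pearson's r of log2 levels, with no test. For the ligands these were Casp8 and Sft2d1 for Tgfb1 (0.89 and 0.87), Cacna2d1 and Gata6 for Tgfb2 (0.98 and 0.96) and Rcn3 and Thbs2 for Tgfb3 (0.95 and 0.94). Ltbp1 was nearest to Pde5a and Col4a6 (0.97 and 0.96) and Thbs1, with the lowest likeness of the members, to Lrg1 and Noct (0.81 for both). For the receptors they were Mef2a and Mbnl2 for Tgfbr1 (0.95 for both), Tent2 and Nsun6 for Tgfbr2 (0.98 and 0.96) and Npas2 and Prickle1 for Tgfbr3 (0.95 and 0.93). For the Smads they were Hjurp and Zfp407 for Smad3 (0.96 for both) and Zmym5 and Jmy for Smad7 (0.92 for both). Clusters share libraries and differ in depth, so r describes these clusters only.

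Other genes of the pathway were read from 4 lists of 50 genes in all, named by the 2 largest differences of each list. Of 13 genes of the latent complex and its activation with enough UMIs in smooth muscle, 3 were at least 1.5-fold higher in APOE2 than in APOE3, where 11.1% of all genes were, and none lower, where 3.01% were. They were Itgb8, an integrin chain that activates latent TGF-beta, at 19.4 against 10.6 CPM (log2 ratio 0.87, 0.77 to 0.97), Nrros, which anchors latent ligand on macrophages and microglia, at 0.73 against 0.41 CPM beside macrophage markers at 96.6 against 28.2 CPM in the same class, and the matrix protein gene Ltbp2, named after its value was seen, at 45.6 against 29.1 CPM. In APOE4 against APOE3, 2 genes were higher, where 8.39% of all genes were, and 1 was lower, where 3.89% were. Lrrc32, a cell surface anchor of latent ligand named after its value was seen, stood at 14.5 against 8.88 CPM. Itgb6, an integrin chain that also activates the latent complex, stood at 0.45 against 0.24 CPM, and Emilin1, an elastic fibre glycoprotein that limits processing of the TGF-beta precursor, at 64.6 against 107.1 CPM (log2 ratio -0.73, -0.77 to -0.69). The median log2 ratio of this list was -0.15 for APOE2 to APOE3 and -0.10 for APOE4 to APOE3, against 0.05 and -0.08 for all genes.

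None of the 9 receptor genes of the wider superfamily reached 1.5-fold against APOE3 in smooth muscle, where 11.1% and 8.39% of all genes were higher and 3.01% and 3.89% lower in APOE2 and APOE4. Bambi, a pseudoreceptor that dampens signalling, had the largest difference between APOE2 and APOE3, at 44 CPM in APOE2 and 77.4 CPM in APOE4 against 64.6 CPM in APOE3, log2 ratios of -0.56 and 0.26. Acvr1b, an activin type I receptor, stood at 7.88 CPM in APOE2 against 5.88 CPM in APOE3, and Eng, the co-receptor endoglin, at 19.2 CPM in APOE4 against 26.1 CPM in APOE3. None of the 15 Smad and Smad regulator genes reached 1.5-fold against APOE3 either. Relative to the median of all genes, 1 gene of each list was as much lower in APOE2, without a share of all genes for that limit. Smad6, the other inhibitory Smad, stood at 17.1 CPM in APOE2 against 25.6 CPM in APOE3 (log2 ratio -0.58, -0.66 to -0.51). Nedd4l, a ubiquitin ligase of Smads, was at 16.1 CPM in APOE2 and 16.3 CPM in APOE4 against 11.8 CPM, and the corepressor Tgif1 at 11.1 CPM in APOE4 against 9 CPM. Median log2 ratios of these lists lay between 0.02 and 0.09, against 0.05 for APOE2 to APOE3 and -0.08 for APOE4 to APOE3 over all genes.

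Of 12 genes known to respond to TGF-beta, 1 was at least 1.5-fold higher in APOE2 than in APOE3, near the 11.1% of all genes, and none was lower, where 3.01% of all genes were. Angptl4, an inhibitor of lipoprotein lipase that also responds to fatty acids, stood at 7.66 CPM in APOE2 against 1 CPM in APOE3, a 7.66-fold difference, while the matrix gene Postn stood at 439.8 against 636.6 CPM (log2 ratio -0.53, -0.55 to -0.52). In APOE4 against APOE3, 2 genes were higher, where 8.39% of all genes were, and 1 was lower, where 3.89% were. Klf10, an early TGF-beta response gene, was at 66.9 against 25.7 CPM (log2 ratio 1.38, 1.32 to 1.44), and Cdkn1a, the cell cycle inhibitor p21, at 194.3 against 110.7 CPM (log2 ratio 0.81, 0.78 to 0.84). In the same comparison 9 of 14 immediate early genes were at least 1.5-fold higher in APOE4. Their part in the Klf10 and Cdkn1a differences was not tested. The lower gene was Ccn2, a connective tissue growth factor gene named after its value was seen, at 1199 against 2079 CPM. The median log2 ratio of the list was -0.08 for APOE2 to APOE3 and -0.07 for APOE4 to APOE3, against 0.05 and -0.08 for all genes.

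Of all genes in fibroblasts, 4.9% were at least 1.5-fold higher and 6.04% lower in APOE2 than in APOE3, and 5.26% were higher and 5.01% lower in APOE4 than in APOE3. Of 11 genes of the latent complex list, 1, Lrrc32, was at least 1.5-fold higher in APOE2 than in APOE3, and none differed as much between APOE4 and APOE3. The genes named for fibroblasts were chosen after their values were seen. Of 9 receptor genes, Acvr1b was higher in APOE2 than in APOE3, at 12.2 against 7.36 CPM, and Bambi lower, at 24.7 against 48.4 CPM (log2 ratio -0.97, -1.18 to -0.76), and Acvr2b was lower in APOE4 than in APOE3. Of 15 Smad and regulator genes, the corepressor Skil, a feedback inhibitor of Smad signalling, was higher in APOE4 than in APOE3, at 162.9 against 100.9 CPM, and so was Tgif1, at 17.7 against 10.6 CPM. Of 12 response genes, 1 was higher and 2 were lower in APOE2 than in APOE3, beside 4.9% and 6.04% of all genes. The lower genes were Tgfbi, an extracellular matrix protein named for its induction by TGF-beta, at 356.2 against 727.2 CPM (log2 ratio -1.03, -1.08 to -0.98), and Ccn2, at 831.1 against 1283 CPM. In APOE4 against APOE3, 3 were higher and 3 lower, beside 5.26% and 5.01% of all genes. Relative to the median of all genes, 4 were higher and 1 lower, without a share of all genes for that limit. The transcription repressor Bhlhe40 stood at 121.9 against 60.9 CPM, Klf10 at 98.1 against 54.5 CPM and Postn at 47.1 against 73.4 CPM. In the same comparison 11 of 14 immediate early genes were at least 1.5-fold higher in APOE4. Their part in the APOE4 differences of the list genes was not tested. Medians of the 4 lists lay between -0.17 and 0 on the log2 scale in these comparisons. Those of all genes were -0.01 for APOE2 to APOE3 and -0.10 for APOE4 to APOE3.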

How the data were processed

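Single-cell RNA was measured in 3 libraries, 1 per genotype, each from pooled mice. The deposited values are counts of UMIs per gene and cell, made by the authors with Cell Ranger 7.0.1 per the file headers on the mm10 genome, with no normalization. From these, cells with at least 200 genes and under 20% mitochondrial UMIs were kept. Libraries were normalized with SCTransform (sctransform 0.4.2) and integrated in Seurat 5.3.0 by 3000 features, leaving out the members and the pathway lists, and clustered at resolution 0.8. Clusters were classed by marker genes. Scrublet at its default called 1, 0 and 2 cells and so did not work; doublets stayed in, and the highest scores were removed as an alternative. UMIs were summed per class and library, and ratios were counted only with at least 50 UMIs in both libraries together. The ratio and interval code was tested on simulated data. Named were all 10 members, the 2 largest differences of each pathway list in smooth muscle against APOE3, and the 2 nearest genes of each member. Members and lists were chosen with earlier results of these data known.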

Additional observations from a re-analysis of the deposited data

Results flagged for a closer look

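Thbs1 differed in direction between APOE4 and APOE3 across cell classes. The log2 ratio was 1.17 in fibroblasts, -2.05 in macrophages and -3.17 in endothelial cells. These values rested on 126 and 44 UMIs in fibroblasts, 11 and 36 in macrophages, and 3 and 26 in endothelial cells. The last 2 classes lie under the minimum of 50 UMIs used for the counts in the report. The macrophage UMIs came from 2 APOE4 and 3 APOE3 cells, and the endothelial UMIs from 1 cell in each of these libraries. The fibroblast ratio turned to -1.56 with the libraries merged without integration and to -0.70 with each cell classed by its own markers. With 1 library per genotype the difference between classes was not tested.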

How the results depend on the processing

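No paired analysis was possible because each genotype had 1 library, all of them replicate 1, and no test was made; for the same reason no replicate could be left out. Under 14 alternatives, 3 of them chosen after seeing the data, 14 of 22 ratios past 1.5-fold kept their direction and 8 also stayed past 1.5-fold. Thbs1 in smooth muscle ranged from 0.81 to 1.74 for APOE2 to APOE3, and Tgfb3 in fibroblasts from -0.99 to -0.67. The following log2 ratios reversed, and the cause was not tested except where the report gives it. With libraries merged without integration, Thbs1 in fibroblasts was -0.48 for APOE2 to APOE3 and -1.56 for APOE4 to APOE3, and Tgfb3 in macrophages -0.024 for APOE4 to APOE2. With each cell classed by its own markers, Thbs1 in fibroblasts was -0.70 for APOE4 to APOE3; in macrophages Tgfb2 was -1.24 for APOE4 to APOE3 and -0.84 for APOE4 to APOE2, Tgfb3 -0.37 and Tgfbr3 -0.24 for APOE4 to APOE2. With the highest Scrublet scores removed, Tgfb2 and Ltbp1 in macrophages were -0.73 and -0.044 for APOE4 to APOE3, and at resolution 0.4 Ltbp1 was -0.089. With unrestricted clustering features, Tgfb2 in endothelial cells was -0.55 for APOE2 to APOE3. Counts of members past 1.5-fold moved as follows. In smooth muscle, APOE4 over APOE2 went from 0 to 1 at resolution 0.4 and by own markers, and to 2 when centred on the median gene. In fibroblasts, APOE2 over APOE3 went from 1 to 0 merged and 2 by own markers. APOE4 over APOE3 went from 1 to 0 at resolution 1.6, merged and by own markers, to 2 by mean CPM of cells or centred, and to 3 with equal weight for clusters, and below APOE3 from 0 to 1 merged and by own markers. APOE4 over APOE2 went from 2 to 1 without high Scrublet scores, at resolution 1.6, by own markers, by mean CPM and with equal weight, and below APOE2 from 2 to 1 at resolutions 0.4 and 1.6, merged, by own markers, centred and with equal weight. Depth limits Thbs1, with 44 UMIs in APOE3 fibroblasts, and all endothelial values in APOE3 and APOE4.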

Other observations

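Lymphocytes and neutrophils also held members of the pathway, in classes of few cells. Smad7 in B lymphocytes stood at 76.6, 133.4 and 260.5 CPM in APOE2, APOE3 and APOE4, and Tgfbr2 at 142.3, 60.6 and 284.3 CPM. In T lymphocytes Smad7 stood at 154.2, 121.9 and 184.2 CPM and Tgfb1 at 75.3, 276.3 and 70.3 CPM, the APOE3 value from 15 cells. Thbs1 in neutrophils was 139.9, 615.2 and 220.5 CPM, from 57, 10 and 7 cells.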
